A study of Danio rerio with 14 samples.

Results

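Among 13263 genes listed in the authors' deposited table for the lower dose rate at 0 yr, 33 were selected on their level in control embryos bred 1 month after parental exposure. Each had at least 600 RPM (reads of the gene, scaled to library size) in that group, and its symbol did not belong to a set of families left out by name, among them ribosomal proteins, mitochondrial transcripts, translation factors, hnRNP and SR splicing proteins, heat shock proteins, proteasome subunits, solute carriers and a few early embryonic genes such as nanog and pou5f3. In all, 54 genes reached 600 RPM, and 21 of them were left out by name. Because the control values of that brood chose the genes, their levels there and every comparison with that control are descriptions.

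The samples were F1 zebrafish embryos of the AB wild type strain at 5.5 hours post fertilization (hpf), 100 embryos to a sample, whose parents had received gamma radiation while their gametes formed or had not. The 14 libraries form 5 groups. In the brood taken 1 month after exposure (0 yr) there were 3 libraries from parents exposed at 53 mGy/h, 3 from parents exposed at 8.7 mGy/h and 2 controls from unexposed parents, a further control having been lost at RNA extraction. When the parents were bred again after 1 year (1 yr), 3 libraries came from parents exposed at 8.7 mGy/h and 3 from unexposed controls. All embryos carried the same strain background, and no parent or breeding day is assigned to a library in the labels, so the spread behind the deposited tests may be that between samples of 1 clutch. Each table gives 1 pooled value per group and no value per library, so no standard deviation can be set beside a level. The pooled values imply a geometric mean depth per library, as a lower bound, of 22.6 (1 yr control) to 27.7 (0 yr control) megareads. For the 33 genes counting error then contributes 0.0039 to 0.016 to a log2 change, and the spread between libraries is not covered by that figure.

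A zebrafish embryo at this age lives both on mRNA that the mother laid down in the egg and on mRNA that the embryo's own genome began to make at the mid-blastula transition. Maternal messages are cleared while embryonic ones accumulate, and gastrulation starts. The most abundant messages of such an embryo mainly encode proteins that every dividing cell needs in bulk: proteins that bind RNA and set its splicing, export and decay, proteins that pack chromatin, and actin and adhesion proteins used in the cell movements of gastrulation.

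The 33 genes were spread over 18 chromosomes with at most 3 on any one. Their annotated spans had a median of 10322 bp, against 17508 bp over all listed genes. By role, 10 encode mRNA-binding or splicing proteins, 4 encode high mobility group (HMG) or other chromatin proteins, 3 a histone or histone chaperones, and pairs belong to the cytoskeleton, to beta-catenin signalling and to the cell cycle. RPM is not divided by transcript length, so the order of genes by RPM is an order of reads, not of molecules. The highest was khdrbs1a, which encodes the KH-domain RNA-binding protein Sam68 and lies on chromosome 13 from 44873005 to 44885471 in GRCz10, at 2812 RPM in control 0 yr embryos, the 4th gene of that group by RPM. Just inside the limit of 600 RPM lay nucks1a at 645 RPM, ctnnb1 at 642 RPM and anp32b at 626 RPM, and just outside it si:ch73-281n10.2 at 596 RPM, ctnnd1 at 595 RPM and cdt1 at 594 RPM.

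As a class these abundant messages were lowest in the offspring of parents exposed at 53 mGy/h and highest in the 1 yr offspring of parents exposed at 8.7 mGy/h. Summed over the 33 genes, the level in the 0 yr brood was 34569 RPM in controls, 37161 RPM at 8.7 mGy/h and 24129 RPM at 53 mGy/h. In the 1 yr brood it was 48540.4 RPM at 8.7 mGy/h and 42859 RPM in controls. The sum at 53 mGy/h was 69.8% of its control, and the sum at 8.7 mGy/h was 107% of its control at 0 yr and 113% at 1 yr. As a share of the RPM of all listed genes, the 33 made up 7.11% in control, 7.65% at 8.7 mGy/h and 4.94% at 53 mGy/h in the 0 yr brood, and 9.82% at 8.7 mGy/h and 8.84% in control in the 1 yr brood. The 53 mGy/h embryos were the lowest of the 5 groups for 24 of the 33 genes, and the 1 yr 8.7 mGy/h embryos the highest for 24. These counts were not taken over all genes, so nothing particular to the 33 is read from them. In RNA from whole embryos, fewer cells of a type and less RNA per cell cannot be told apart.

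**Figure D1:**
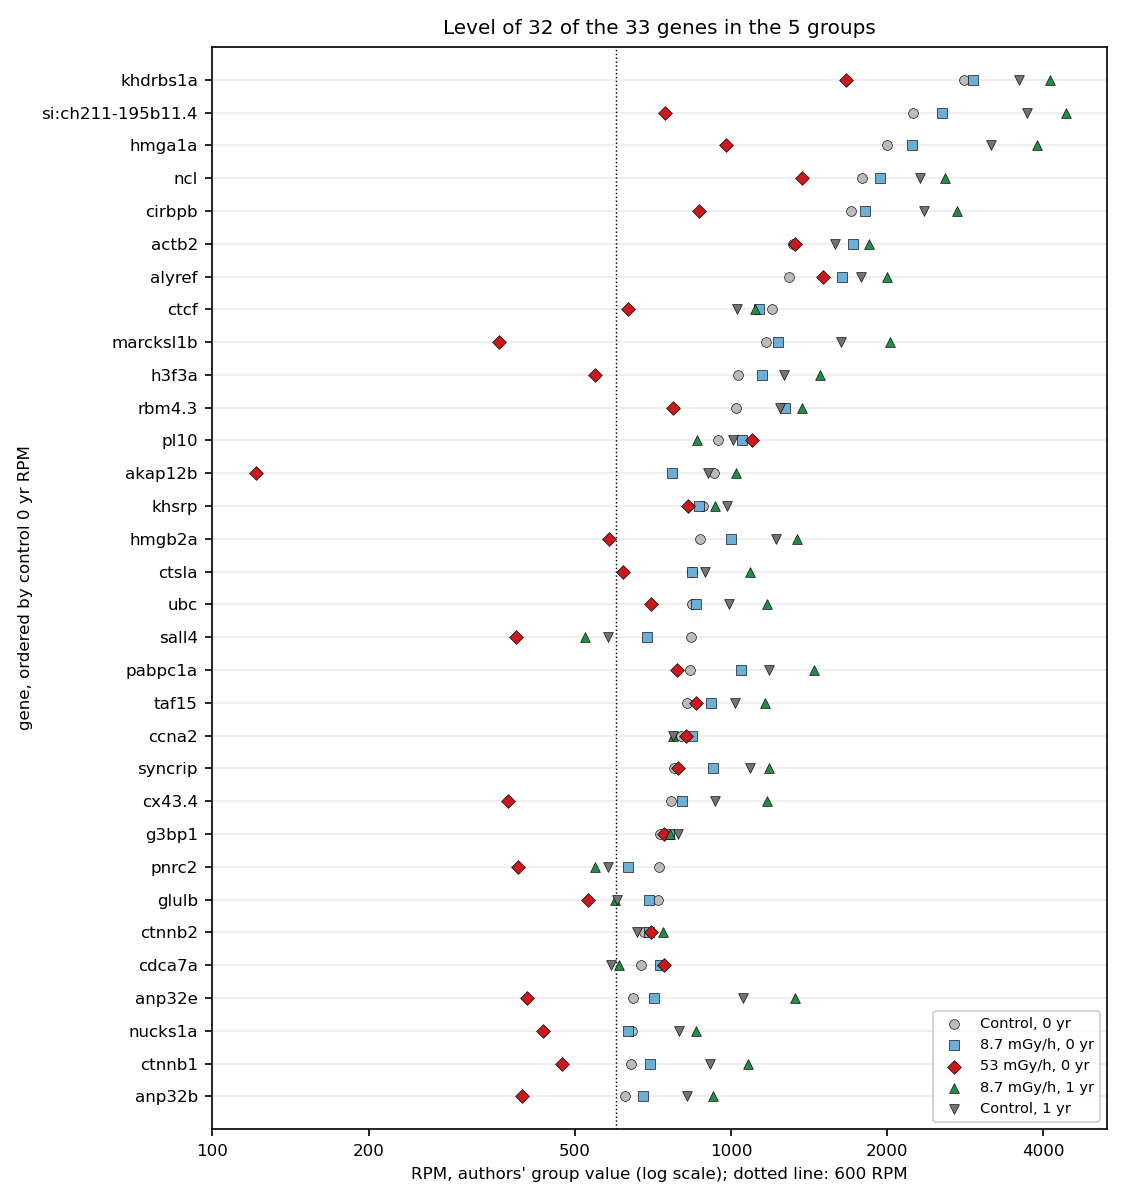
Level of 32 of the 33 genes in the 5 groups, as the authors' group value in RPM on a log axis, with genes ordered by their control 0 yr level and the 600 RPM limit dotted. The 53 mGy/h symbols (diamonds) stand left of the other groups for most genes, farthest for akap12b at 121 RPM, while 19 genes stay at or above 600 RPM in all 5 groups.

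Of the 33 genes, 20 were still at 600 RPM or more in the 53 mGy/h embryos, all 33 were at 8.7 mGy/h in the same brood, and 30 were in either 1 yr group. Over all listed genes, 54 reached 600 RPM in control, 60 at 8.7 mGy/h and 46 at 53 mGy/h in the 0 yr brood. At 1 yr 81 did at 8.7 mGy/h and 68 in control. The 33 were chosen on control 0 yr levels, where all reach 600 RPM, so their count could only stay or drop in another group. The log2 range over the 5 groups ran from 0.11 for g3bp1 to 3.08 for akap12b, with a median of 0.91. The narrowest ranges belonged to g3bp1 (0.11), the cyclin gene ccna2 (0.12), the beta-catenin gene ctnnb2 (0.16), khsrp (0.25) and cdca7a (0.34). The widest were those of akap12b (3.08), si:ch211-195b11.4 (2.57), marcksl1b (2.51), hmga1a (1.99), anp32e (1.72), cx43.4 (1.66), cirbpb (1.65), h3f3a (1.44), khdrbs1a (1.30) and anp32b (1.23). The table for 1 yr may have been scaled apart from those for 0 yr, so ranges across broods are descriptions.

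At 53 mGy/h, 22 of the 33 genes fell and none rose in the authors' deposited table at a false discovery rate (FDR) under 0.05. That is 66.7% down, where 21.5% of all 13714 genes of that table were called down and 22.1% up. The median log2 change of the 33 was -0.44, against 0.12 over all genes and -0.04 over the 1042 genes of 100 RPM or more, and relative to the median of all genes it was -0.56. The limit on level moves this median, to -0.21 with 300 RPM and to -0.91 with 1000 RPM in place of 600. Nothing is read from these differences, since the control values of this contrast chose the genes. The called falls ran from -2.94 to -0.26 on the log2 scale, and 6 were at least 2-fold. The 11 genes that were not called had log2 changes of -0.10 to 0.21. The deposited FDR does not take a log2 RPM change of 0 as its zero: cdca7a, 0.14 higher on the log2 scale at 53 mGy/h, has an FDR of 0.998 in the authors' deposited table. The kind of test behind it is not named there. Early patterning and covering-layer genes that mark the stage of the embryo were lower at 53 mGy/h as well, at 487 RPM summed over 15 genes, against 1516 RPM in control, and their part in these falls was not tested.

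The largest fall was that of akap12b, which encodes a scaffold protein that anchors protein kinases A and C, on chromosome 20 from 26509747 to 26568217. It was at 928 RPM in control, 769 RPM at 8.7 mGy/h and 121 RPM at 53 mGy/h in the 0 yr brood, and at 1024 RPM at 8.7 mGy/h and 904 RPM in control in the 1 yr brood. The 53 mGy/h group stood far below the other groups, which lay within a narrow span, and the gene moved to rank 827 by RPM in 53 mGy/h embryos, against rank 28 in control. Its log2 change at 53 mGy/h was -2.94, with an FDR of 1.4e-45 in the authors' deposited table, the smallest FDR among the 33.

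Next by size came a gene of the actin cytoskeleton. The MARCKS-like gene marcksl1b, whose protein links actin to the plasma membrane, had 1168 RPM in control, 1229.5 RPM at 8.7 mGy/h and 356 RPM at 53 mGy/h in the 0 yr brood, and 2022 RPM at 8.7 mGy/h and 1631 RPM in control at 1 yr. It was lowest at 53 mGy/h by a wide margin and higher in both 1 yr groups than in any 0 yr group, with a log2 change of -1.71 at 53 mGy/h (FDR 1.61e-08 in the authors' deposited table). The beta-actin gene actb2, a structural gene of the same role, was not called: it had 1317 RPM in control, 1715 RPM at 8.7 mGy/h and 1328 RPM at 53 mGy/h, a log2 change of 0.01 at 53 mGy/h with an FDR of 0.591 in the authors' deposited table. The difference between the pair was not tested.

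The unnamed gene si:ch211-195b11.4, on the minus strand of chromosome 14 from 38505190 to 38507061, lies over hnrnpa0b, an RNA-binding protein gene on the plus strand from 38505360 to 38507852, for 1702 bp. Its values were 2245 RPM in control, 2550.5 RPM at 8.7 mGy/h and 746 RPM at 53 mGy/h in the 0 yr brood, and 4434 RPM at 8.7 mGy/h and 3724 RPM in control at 1 yr. Those of hnrnpa0b were 2250.1 RPM in control, 2558 RPM at 8.7 mGy/h and 748 RPM at 53 mGy/h at 0 yr, and 4445 RPM at 8.7 mGy/h and 3731 RPM in control at 1 yr. The libraries were non-directional, so reads in the overlap cannot be given to either gene, and the near-equal values of the pair count as 1 observation. The log2 change at 53 mGy/h was -1.59 (FDR 1.36e-08 in the authors' deposited table). The other genes that overlap a member on the opposite strand were at 28.0 RPM or lower in every group that lists them.

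At 53 mGy/h each of the 4 HMG and other chromatin genes among the 33 fell, with a median log2 change of -0.75. Each of the 3 genes for a histone or histone chaperones fell as well, with a median of -0.68. Of all 54 genes at 600 RPM or more 64.8% were called down, and of 123 other HMG and chromatin genes 33 were. Roles were set by symbol, and cdca7a, counted with the cell cycle, was not called. The AT-hook gene hmga1a, whose protein bends AT-rich DNA, was at 2000.3 RPM in control, 2232 RPM at 8.7 mGy/h and 978 RPM at 53 mGy/h, and at 3890.2 RPM at 8.7 mGy/h and 3177 RPM in control in the 1 yr brood. It fell at 53 mGy/h (log2 change -1.03, FDR 5.92e-08 in the authors' deposited table), and it was at its highest in the 1 yr groups. The insulator protein gene ctcf had 1199 RPM in control, 1129.98 RPM at 8.7 mGy/h and 633 RPM at 53 mGy/h, and 1115 RPM at 8.7 mGy/h and 1025 RPM in control at 1 yr. Unlike hmga1a it was not higher in the 1 yr groups, and only its 53 mGy/h value stood apart (log2 change -0.92, FDR 3.34e-12 in the authors' deposited table).

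The HMG-box gene hmgb2a and nucks1a, which encodes a nuclear DNA-binding phosphoprotein, fell too at 53 mGy/h, with log2 changes of -0.58 for hmgb2a and -0.57 for nucks1a. Levels of hmgb2a were 581 RPM at 53 mGy/h and 871 RPM in control, and those of nucks1a 434 RPM at 53 mGy/h and 645 RPM in control. The histone H3.3 gene h3f3a was at 1029.8 RPM in control, 1148 RPM at 8.7 mGy/h and 547 RPM at 53 mGy/h in the 0 yr brood, a log2 change of -0.91 at 53 mGy/h (FDR 5.37e-05 in the authors' deposited table). The genes anp32e, whose protein removes the histone variant H2A.Z from chromatin, and anp32b, an acidic nuclear phosphoprotein of the same family, fell with log2 changes of -0.68 for anp32e and -0.66 for anp32b. Neither group of chromatin genes had a member that was not called at this dose rate.

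The mRNA-binding and splicing genes divided. At 53 mGy/h, 4 of the 10 fell (khdrbs1a, cirbpb and rbm4.3 among them), 6 were not called, and the median log2 change was -0.09. Sam68 gene khdrbs1a was at 2812 RPM in control, 2923 RPM at 8.7 mGy/h and 1667 RPM at 53 mGy/h, and at 4115 RPM at 8.7 mGy/h and 3590.3 RPM in control at 1 yr. It kept rank 4 or 5 by RPM in all 5 groups while its log2 change at 53 mGy/h was -0.75 (FDR 3.09e-06 in the authors' deposited table). The cold-inducible RNA-binding protein gene cirbpb had 1701 RPM in control, 1810.5 RPM at 8.7 mGy/h and 869 RPM at 53 mGy/h, with a log2 change of -0.97 at 53 mGy/h (FDR 3.6e-07 in the authors' deposited table). The fall of rbm4.3, of the RBM4 family of splicing regulators, was smaller, with a log2 change of -0.40.

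The 6 RNA-binding genes that were not called at 53 mGy/h stayed near their control. The export adaptor gene alyref had 1502 RPM at 53 mGy/h and 1294 RPM in control, a log2 change of 0.21 with an FDR of 0.892 in the authors' deposited table. The genes khsrp, whose protein binds AU-rich elements, pabpc1a, the cytoplasmic poly(A)-binding protein, taf15, of the FET family, syncrip, an hnRNP-like protein, and g3bp1, a stress granule protein, had log2 changes of -0.10 to 0.06. For g3bp1 the 5 group values lay between 730.4 and 791 RPM, the narrowest span of the 33 genes on the log2 scale. The helicase gene pl10, a DEAD-box gene of the DDX3 family whose symbol escapes the ddx filter, had 1097 RPM at 53 mGy/h and 945 RPM in control, again without a call (log2 change 0.21, FDR 0.828 in the authors' deposited table).

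Among genes of patterning and adhesion, sall4, a zinc finger transcription factor of pluripotent cells, was at 837 RPM in control, 689 RPM at 8.7 mGy/h and 385 RPM at 53 mGy/h, and at 523 RPM at 8.7 mGy/h and 579 RPM in control at 1 yr. It was highest in the group that chose it and below 600 RPM in both 1 yr groups, and its log2 change at 53 mGy/h was -1.12 (FDR 1.76e-20 in the authors' deposited table). The gap junction gene cx43.4 had 766 RPM in control, 804 RPM at 8.7 mGy/h and 371 RPM at 53 mGy/h, and 1173 RPM at 8.7 mGy/h and 929.6 RPM in control at 1 yr, with a log2 change of -1.04 at 53 mGy/h (FDR 1.25e-19 in the authors' deposited table). Unlike sall4, it was higher in both 1 yr groups than in any 0 yr group.

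The beta-catenin genes, which carry Wnt signals and also hold cadherins to actin, received different calls at 53 mGy/h. The first, ctnnb1, was at 473 RPM at 53 mGy/h and 642 RPM in control and fell (log2 change -0.44, FDR 0.00256 in the authors' deposited table), whereas ctnnb2 was at 699.98 RPM at 53 mGy/h and 678 RPM in control and was not called (0.05, FDR 0.75). The difference between these paralogues was not tested, and reads in stretches where close copies are identical may be split between them.

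Neither cell cycle gene was called in any of the 3 comparisons. Cyclin A2 gene ccna2 had 802 RPM in control, 841 RPM at 8.7 mGy/h and 818 RPM at 53 mGy/h in the 0 yr brood, and 772 RPM at 8.7 mGy/h and 774 RPM in control at 1 yr. These values all lie between 772 and 841 RPM. The gene cdca7a, which acts in cell division and DNA methylation upkeep, had log2 changes of 0.14 at 53 mGy/h and 0.05 at 8.7 mGy/h, 1 yr.

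The remaining falls at 53 mGy/h were those of ncl, which encodes the nucleolar protein nucleolin (log2 change -0.38), ctsla, a cathepsin L protease gene (-0.44), the polyubiquitin gene ubc (-0.26), the glutamine synthetase gene glulb (-0.45) and pnrc2, whose protein joins nuclear receptors and the mRNA decapping machinery (-0.91). Levels of ncl were 1373 RPM at 53 mGy/h and 1788 RPM in control, and those of pnrc2 were 387 RPM at 53 mGy/h and 727 RPM in control. The fall of ubc was the smallest that was called, with an FDR of 0.0241 in the authors' deposited table.

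**Figure D2:**
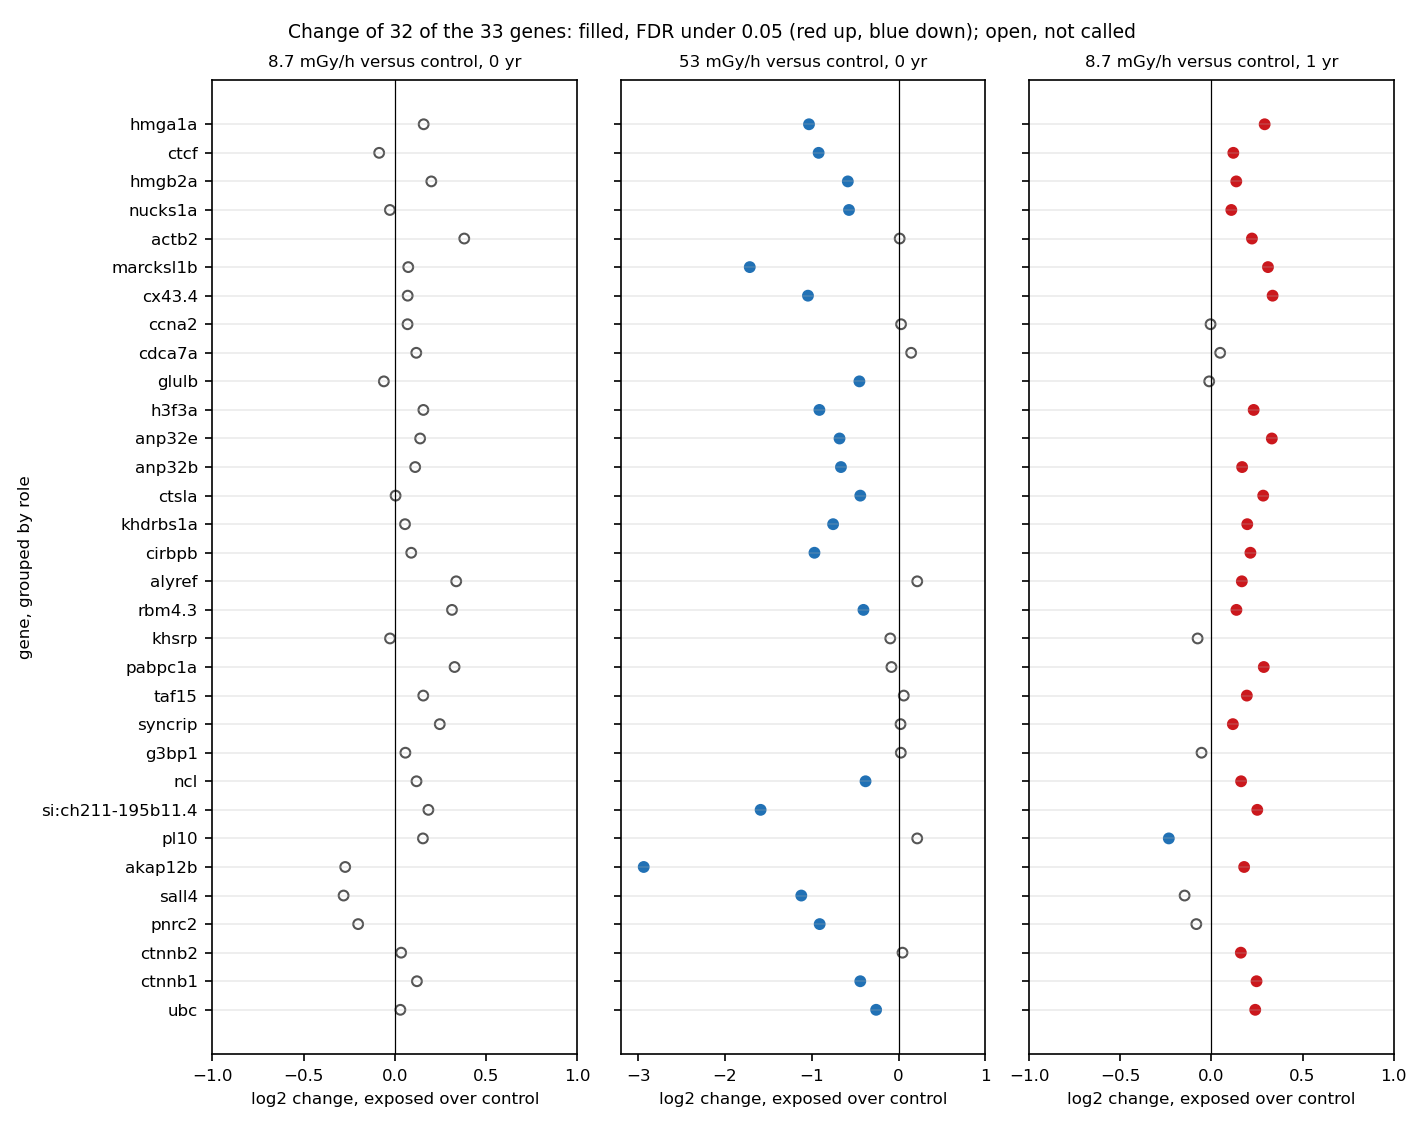
Log2 change of 32 of the 33 genes over control in the 3 comparisons, grouped by role, filled where the authors' FDR is under 0.05 (red up, blue down) and open otherwise; the middle panel has a wider axis. No symbol is filled at 8.7 mGy/h, 0 yr, most are blue at 53 mGy/h, and at 8.7 mGy/h, 1 yr, most are red and pl10 is blue.

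At 8.7 mGy/h in the 0 yr brood none of the 33 genes was called in either direction by the authors' deposited table, where 0.151% of all 13263 genes were called up and 0.143% down. Log2 changes ran from -0.28 for sall4 to 0.38 for actb2, and every FDR was 0.842 or higher. The tables hold no unadjusted p, so a count at an unadjusted threshold cannot be given. The median log2 change was 0.09, against -0.04 over all genes, and 25 of the 33 values were above 0. The genes with the highest values in this comparison were actb2 (0.38), alyref (0.34), pabpc1a (0.33) and rbm4.3 (0.31), and those with the lowest were sall4 (-0.28), akap12b (-0.27) and pnrc2 (-0.20). Set against each other without their shared control, the 53 mGy/h embryos were lower than the 8.7 mGy/h embryos of the same brood for 30 of the 33 genes, with a median log2 difference of -0.54 and a range of -2.66 to 0.06. The share over all genes was not computed for this count, and the difference between dose rates was not tested. Over all 54 genes at 600 RPM or more, the 33 among them, the median log2 change from control was -0.39 at 53 mGy/h and 0.12 at 8.7 mGy/h.

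In the 1 yr brood, in libraries that had no part in the choice of genes, most calls were rises. At 8.7 mGy/h, 25 of the 33 genes rose and 1 fell in the authors' deposited table (75.8% and 3.03%), where 20.0% of all 12502 genes were called up and 22.4% down. The changes were small: the called rises were at most 0.34 on the log2 scale, or 26.2%, and none of the 33 reached 2-fold. The median log2 change was 0.17, a 1.12-fold difference, against -0.09 over all genes and 0.09 over the 975 genes of 100 RPM or more. Relative to genes of 100 RPM or more the median is 0.08. The deposited FDR was kept there, so centring could reverse the direction of a call but not remove it. With 1 small rise then below 0, 72.7% of the 33 stand as up and 6.06% as down, and no centred test was run. From 1 RPM upward the share of all genes called up in this comparison was larger at higher control levels, as the bins given further on show.

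The largest rises at 1 yr were those of cx43.4, at 1173 RPM at 8.7 mGy/h and 929.6 RPM in control (log2 change 0.34, FDR 4.07e-08 in the authors' deposited table), and of anp32e, at 1326 RPM at 8.7 mGy/h and 1054 RPM in control (0.33, FDR 9.84e-12). The gap junction gene and the histone chaperone gene were both among those that fell at 53 mGy/h. Then came marcksl1b (0.31), hmga1a (0.29), pabpc1a (0.29), ctsla (0.28), si:ch211-195b11.4 (0.25), ctnnb1 (0.25), ubc (0.24) and h3f3a (0.23), each a log2 change over the 1 yr control. The poly(A)-binding protein gene pabpc1a was at 1442 RPM at 8.7 mGy/h and 1182 RPM in control at 1 yr.

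By role, all 4 HMG and other chromatin genes rose at 1 yr with a median log2 change of 0.13. So did all 3 genes for a histone or histone chaperones, with 0.23. Of the 68 genes at 600 RPM or more in the 1 yr control, 85.3% were called up. Of the 10 mRNA-binding genes 8 rose, with a median of 0.15, and khsrp (-0.08) and g3bp1 (-0.05) were not called. Both cytoskeletal genes and both beta-catenin genes rose, actb2 by 0.22 and ctnnb2 by 0.16 on the log2 scale. The single fall was that of the helicase gene pl10, on chromosome 6 from 59900573 to 59918191, at 859 RPM at 8.7 mGy/h and 1009 RPM in control. Its log2 change was -0.23 with an FDR of 0.0317 in the authors' deposited table, and it is not called at an FDR of 0.01. Among the 7 genes that were not called, sall4 (-0.15) and pnrc2 (-0.08) had the lowest log2 changes, cdca7a (0.05) had the highest, and ccna2 was at 772 RPM at 8.7 mGy/h and 774 RPM in control.

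**Figure D3:**
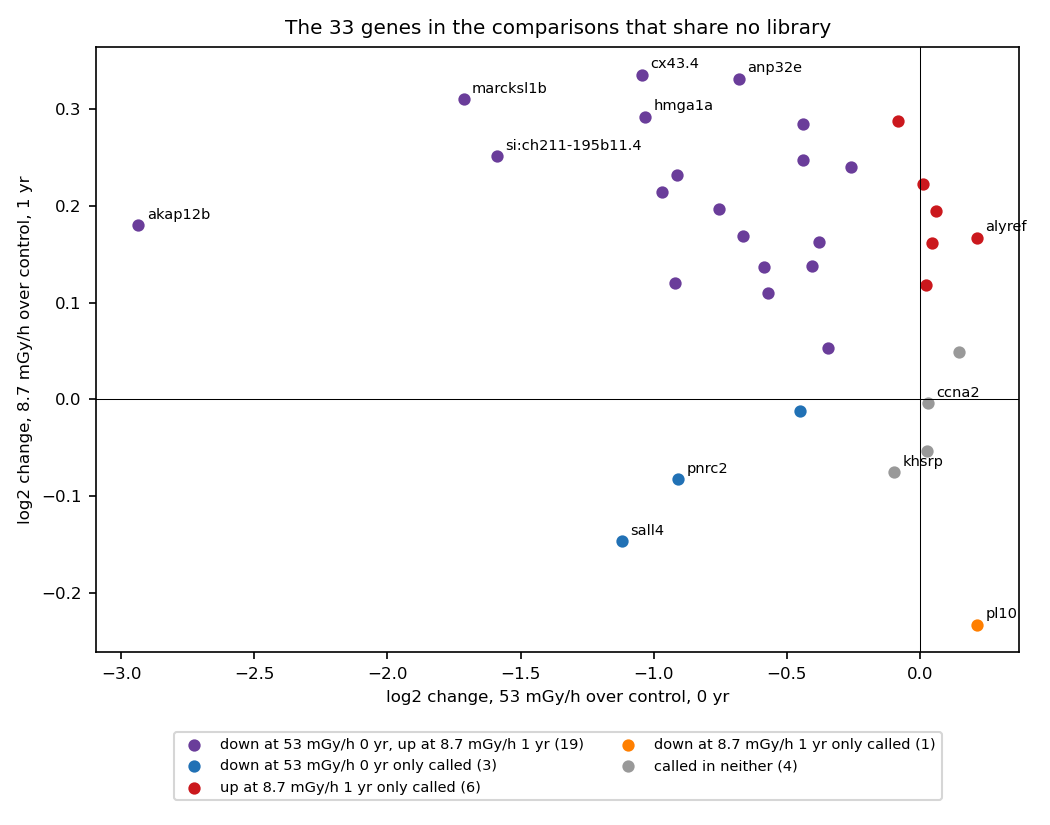
Log2 change of each of the 33 genes at 53 mGy/h, 0 yr (horizontal) and at 8.7 mGy/h, 1 yr (vertical), each over its own control, coloured by the calls in the authors' deposited tables. The 19 genes down in the first and up in the second fill the upper left, with akap12b alone at the far left, and pl10 lies at the lower right.

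The 53 mGy/h comparison at 0 yr and the 8.7 mGy/h comparison at 1 yr share no library. Between them, 19 genes fell in the first and rose in the second, which is 86.4% of the 22 falls and 76.0% of the 25 rises. Over the 12154 genes in both tables, 1396 genes did so, 49.6% of the 2815 falls and 59.9% of the 2332 rises. Whatever the other call, 75.8% of the 33 rose at 1 yr and 66.7% fell at 53 mGy/h, not far below 86.4% and 76.0%. Over all genes of each table, 20.0% rose at 1 yr and 21.5% fell at 53 mGy/h, well below the 49.6% and 59.9% over genes in both tables. A link between the calls was not tested, for the 33 or for all genes. The genes that fell at 53 mGy/h without a call at 1 yr were sall4, pnrc2 and glulb, and the 6 that rose at 1 yr without a call at 53 mGy/h were actb2, alyref, pabpc1a, taf15, syncrip and ctnnb2. Called in neither were khsrp, ccna2, g3bp1 and cdca7a. None of the 33 was called in the same direction in both. As none of them rose at 53 mGy/h and pl10 alone fell at 1 yr, that count had little room. The share of same-direction calls over all genes was not computed, so nothing is read from the count. Across the 33 genes the log2 changes of these comparisons had a Pearson's r of -0.29 and a Spearman's rho of -0.38, and without akap12b, over 32 genes, -0.34 and -0.38. Genes are not independent replicates, and the points share the libraries and the scaling of each table.

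The unexposed controls of the broods also differed in these genes. The level summed over the 33 genes in the 1 yr control was 124% of that in the 0 yr control. Of the 33, 25 genes were higher in the 1 yr control and 8 lower. Over all 12171 genes in both tables, 4061 were higher and 8092 lower. Over 1046 genes of 100 RPM or more in the 0 yr control, 502 were higher and 544 lower. The median log2 difference of the 33 was 0.28, against -0.20 over all genes in both tables and -0.02 over genes of 100 RPM or more. The differences of the 33 ran from -0.53 for sall4 to 0.73 for si:ch211-195b11.4. They are larger at the median than the change at 8.7 mGy/h within the 1 yr brood. The tables may have been scaled separately, and the time since the first brood and the age of the parents follow the same split, so these cannot be told apart.

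**Figure D4:**
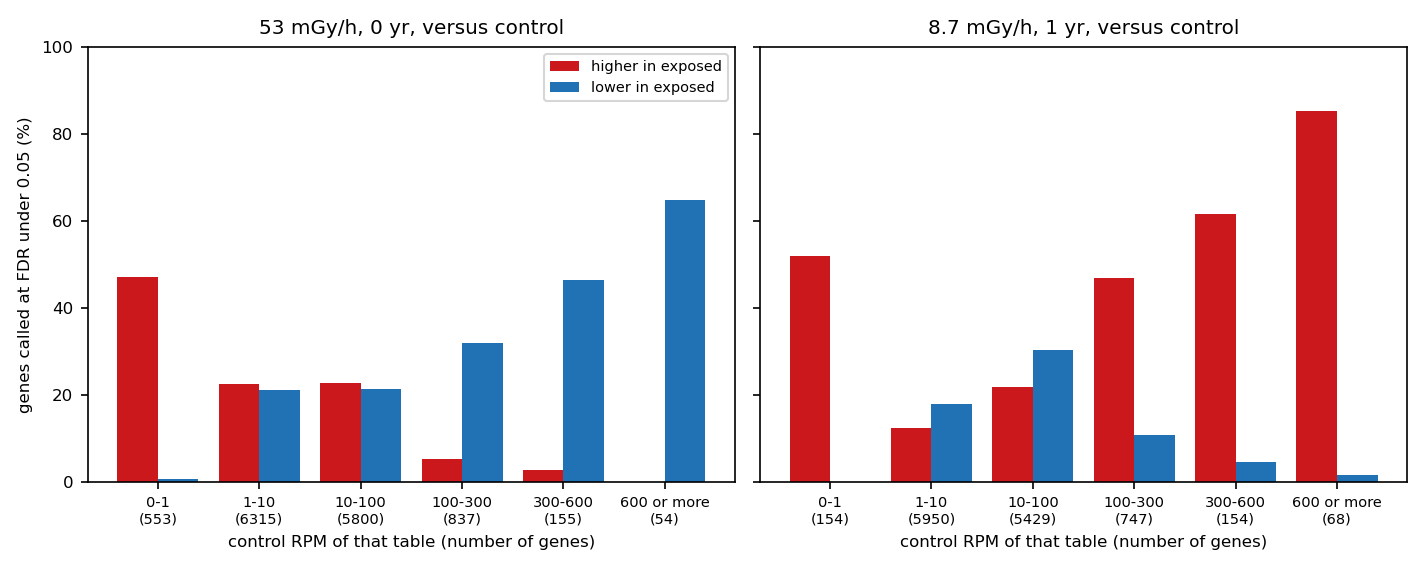
Share of genes called up (red) and down (blue) in the authors' deposited tables, in %, by control level in RPM, with the number of genes under each bin, for 53 mGy/h, 0 yr (left) and 8.7 mGy/h, 1 yr (right). From 1 RPM upward the share called down at 53 mGy/h climbs to 64.8% and the share called up at 8.7 mGy/h, 1 yr, to 85.3%, while in the lowest bin 47.2% and 51.9% are called up. Genes of the lowest bin may be listed only where their exposed level is higher, so its shares are not read against the others.

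Genes of lower level are given in bins of control RPM as a description, since the control values that set the bins are also the base of each change. At 53 mGy/h the share of genes called down was 0.723% under 1 RPM, 21.1% at 1 to 10 RPM, 21.2% at 10 to 100 RPM, 32.0% at 100 to 300 RPM, 46.5% at 300 to 600 RPM and 64.8% of the 54 genes at 600 RPM or more. The share called up was 47.2%, 22.4%, 22.7%, 5.14%, 2.58% and 0% in the same bins. At 8.7 mGy/h, 1 yr, in bins of the 1 yr control, the share called up was 51.9% of the 154 genes under 1 RPM, then 12.4%, 21.8%, 46.9%, 61.7% and, over 68 genes, 85.3%. The rule of listing is not given, and a gene under 1 RPM in control may be listed only where its exposed level is higher. The median log2 change of that bin was 1.27 over 553 genes at 53 mGy/h and 0.84 at 8.7 mGy/h, 1 yr. Its shares are therefore not read against those of the other bins.

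The counts of the 33 can be set beside those of the 21 genes left out by name. At 53 mGy/h 22 of the 33 fell (66.7%, median log2 change -0.44), against 13 of the 21 (61.9%, -0.30), and no gene of either set rose. At 8.7 mGy/h, 1 yr, 25 of the 33 rose (75.8%, median 0.17), against 15 of the 21 (71.4%, 0.14). In the 155 genes of 300 to 600 RPM, 72 fell (46.5%) and 4 rose at 53 mGy/h with a median of -0.18, and 90 rose (58.1%) and 14 fell (9.03%) at 8.7 mGy/h, 1 yr, with a median of 0.10. The near-equal values of si:ch211-195b11.4, among the 33, and hnrnpa0b, among the 21, enter both sets, and without si:ch211-195b11.4 65.6% of the remaining 32 fell at 53 mGy/h. The share differences between these sets were not tested.

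The same roles were looked up over all listed genes other than the 33, by symbol patterns, and their counts stand beside 21.5% down and 22.1% up over all genes at 53 mGy/h and 20.0% up and 22.4% down at 8.7 mGy/h, 1 yr. Of 36 other histone and histone chaperone genes, 18 fell and 1 rose at 53 mGy/h (median log2 change -0.34), and at 1 yr 19 of 34 rose and 2 fell (0.11). Of 44 other nucleolar genes, 21 fell and 2 rose at 53 mGy/h (-0.26), and 24 of 43 rose at 1 yr (0.15). Of 231 other mRNA-binding and splicing genes, 71 fell and 20 rose at 53 mGy/h (-0.10), and 100 of 228 rose and 22 fell at 1 yr (0.06). HMG and other chromatin genes were near these shares at 53 mGy/h, with 33 falls and 26 rises among 123 at 53 mGy/h, and 41 rises and 22 falls among 118 at 1 yr. Other ubiquitin and SUMO genes went against ubc, with 85 rises and 34 falls among 275 at 53 mGy/h (0.25), and 41 rises and 74 falls among 256 at 1 yr (-0.18). The 228 other cell cycle genes, with 48 rises and 66 falls at 53 mGy/h, had a median log2 change of 0.03, and at 1 yr 66 of 218 rose and 41 fell. Among 109 other adhesion and junction genes 31 fell and 10 rose at 53 mGy/h, and 26 of 88 rose and 13 fell at 1 yr. Among 127 other cytoskeletal genes 42 fell and 20 rose at 53 mGy/h, and 51 of 129 rose and 24 fell at 1 yr. The 448 other signalling genes, with 102 falls and 110 rises, were near the shares over all genes at 53 mGy/h. At 1 yr 99 of 430 rose and 135 fell, a larger share of falls than the 22.4% over all genes. Metabolic genes other than glulb had 61 falls and 53 rises among 315 at 53 mGy/h, and 59 rises and 51 falls among 297 at 1 yr. Of 12 other lipoprotein and yolk layer genes 6 fell and 3 rose at 53 mGy/h, and of 15 at 1 yr 11 rose and 1 fell.

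**Figure D5:**
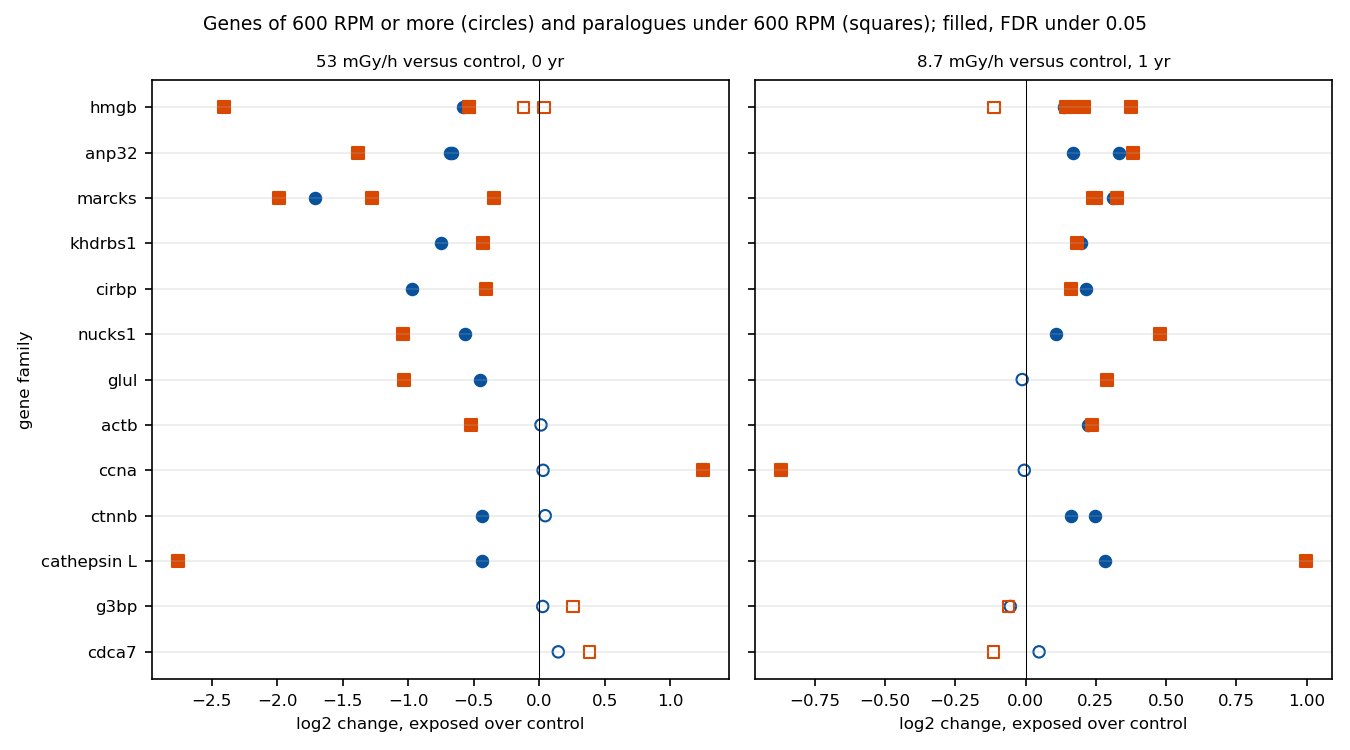
Log2 change over control at 53 mGy/h, 0 yr (left) and at 8.7 mGy/h, 1 yr (right) for genes of 600 RPM or more (circles) and their paralogues under 600 RPM (squares), by gene family, filled where the authors' FDR is under 0.05. The marcks and anp32 families are filled left of 0 at 53 mGy/h and right of 0 at 1 yr, while ccna1 stands apart from ccna2 in both panels.

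Many of the 33 have a related gene of lower level with a like symbol. Some of these are copies that zebrafish kept from an ancient genome duplication, and others are further members of the same gene family. Of 28 such paralogues under 600 RPM in the 0 yr control, picked by symbol once the 33 were known, 17 fell and 1 rose at 53 mGy/h (median log2 change -0.48), where 21.5% of all genes fell and 22.1% rose. None was called at 8.7 mGy/h, 0 yr, and 23 rose and 1 fell at 8.7 mGy/h, 1 yr (0.24), where 20.0% of all genes rose and 22.4% fell. Nothing particular to the paralogues is read from these counts. The cyclin A1 gene ccna1, an egg and early cleavage cyclin, was the exception both times. It was at 873 RPM at 53 mGy/h and 367 RPM in control at 0 yr (log2 change 1.25, FDR 2.95e-14 in the authors' deposited table), and at 161 RPM at 8.7 mGy/h and 295 RPM in control at 1 yr (-0.87, FDR 2.97e-12). The related gene ccna2 moved in neither comparison beyond 0.03 on the log2 scale.

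In several other families the related genes differed in their calls or in the size of the change. The beta-actin gene actb1 was at 393 RPM at 53 mGy/h and 563 RPM in control and fell (log2 change -0.52, FDR 0.00312 in the authors' deposited table), beside actb2 at 0.01. All of marcksl1a (-1.99), marcksa (-1.28) and marcksb (-0.35) fell at 53 mGy/h with marcksl1b, and all rose at 1 yr. The HMG-box genes spread from hmgb3a at -2.41 (8.49 RPM at 53 mGy/h and 45 RPM in control) to hmgb3b at 0.04, which was not called. The chaperone-family gene anp32a (log2 change -1.39) and nucks1b (-1.04) also fell at 53 mGy/h. The cathepsin gene ctsll was at 98.7 RPM at 8.7 mGy/h and 49.4 RPM in control at 1 yr, a log2 change of 1.00. Beside h3f3a, the most abundant of the 3 identifiers named h3f3b.1 was not called at 53 mGy/h. It was at 377 RPM at 53 mGy/h and 410 RPM in control (log2 change -0.12, FDR 0.247 in the authors' deposited table). The other h3f3b.1 identifiers fell (-0.75 and -0.81). Differences between related genes were not tested, and near-identical copies could exchange reads in the authors' counting, h3f3a and the 3 identifiers named h3f3b.1 among them.

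At 53 mGy/h, and for most at 8.7 mGy/h, 1 yr, genes that mark the stage of the embryo differed from control in the same direction as most of the 33. Of 20 symbols for early patterning and covering-layer genes, 15 were listed, and 14 of them were lower at 53 mGy/h than in control, with aplnrb the one higher. Their summed level in the 0 yr brood was 1516 RPM in control, 1557 RPM at 8.7 mGy/h and 487 RPM at 53 mGy/h. At 8.7 mGy/h, 0 yr, the direction was mixed, with 9 of the 15 higher than control and 6 lower. In the 1 yr brood the summed level was 2871 RPM at 8.7 mGy/h, where 11 of 15 were higher, and 2386 RPM in control. Between the controls of the broods single genes went both ways: ta was at 44.4 RPM at 0 yr and 211 RPM at 1 yr, and mxtx2 at 46.8 RPM and 8.58 RPM. The largest part of the 1 yr sums was krt4, at 1005 RPM at 8.7 mGy/h and 811 RPM in control. There gsc, noto, mixl1 and cyp26a1 were lower at 8.7 mGy/h. The mesoderm gene tbx16 was at 86.6 RPM at 53 mGy/h and 429 RPM in control at 0 yr. Of 11 markers of later tissues elavl3 alone was listed, at 1.13 RPM or lower, and of 10 ovary, egg and blood markers 4 were listed, summing to 69.1 RPM at 53 mGy/h and 61.8 RPM in control at 0 yr, and to 46.2 RPM at 8.7 mGy/h and 53.5 RPM in control at 1 yr. The part of embryo stage in the changes of the 33 genes was not tested.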

How the data were processed

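Poly(A) mRNA was sequenced from non-directional libraries, per the labels' protocols. The submitters' processing notes name the build GRCz10 and the tools STAR 2.5.2b, DESeq2, FastQC 0.11.5 and Trim Galore 0.4.2, with no role or setting. The authors deposited 1 table per comparison with, per the file headers, log2 RPM and RPM for each group, an FDR (an adjusted p-value), the ratio of exposed over control and a signed fold, a score with no values between -1 and 1. The test behind the FDR is not given in the tables.

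The log2 change is the difference of the deposited log2 RPM columns, exposed minus control. A gene was called at a deposited FDR under 0.05, and no test of samples was run, since the tables hold no library values. Medians and counts were computed with Python 3.11.15, numpy 2.4.6 and pandas 2.3.3 (scipy 1.17.1 for correlations, matplotlib 3.10.9 for figures). Depth was fitted on the 150 lowest values of a group above a small floor. It was the smallest at which the product of read counts over the libraries came out whole (tolerance 0.04). With the labelled number of libraries 100% of values did so, against 22.7 to 31.3% with a wrong number. The method was checked on simulated data, and the counting error derived from it covers counting alone.

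Genes named in the text were the 10 highest in control 0 yr, the 10 called genes of largest change each way per comparison, the 5 of narrowest and 10 of widest range, those called in opposite directions, those beside the 600 RPM limit and up to 4 per role. The genes and lists were chosen with earlier results of these data known. Of the 33 genes, 1 is counted throughout but is not reported here by itself. The paralogues, and the alternative without si:ch211-195b11.4, were chosen after seeing the data. Alternatives covered the RPM and FDR limits, the group of choice, the name filter, centring and a pseudocount.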

Additional observations from a re-analysis of the deposited data

How the results depend on the processing

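No paired analysis was possible because the tables hold 1 pooled value per group and none per library, and for the same reason leaving out each library in turn was not run. The order by RPM per kb of coding length was not run, as no lengths of the build were used here. Among the alternative values of the counts, medians and shares, 60 moved by less than 1.5 times and 11 by more. The 60 include shares that were 0% in the main setting and stayed at 0%. They also include centred shares, for which the deposited FDR was kept. The tally is therefore not a measure of how stable the results are.

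With a limit of 300 RPM, 2.41% of genes were called up at 53 mGy/h (main 0%), and the median log2 change was -0.21 at 53 mGy/h and 0.047 at 8.7 mGy/h, 0 yr; with 1000 RPM these medians were -0.91 and 0.16. At 8.7 mGy/h, 1 yr, the main share called down was 3.03%. It was 6.63% with 300 RPM, 0% with 1000 RPM and 0% at an FDR under 0.01. When centred on genes of 100 RPM or more it was 6.06%, where the deposited FDR was kept and only directions could change. The 1 yr median was 0.26 centred on all genes and 0.076 centred on genes of 100 RPM or more. The cause was not tested. Chosen on the 1 yr control instead, 40 genes qualified, 30 of them shared, with 67.5% down at 53 mGy/h and 87.5% up at 8.7 mGy/h, 1 yr. The pooled values set the limit: the spread between libraries is unknown for every gene.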
